A study of Mus musculus with 12 samples.

Results

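The genes described here are 10 transcripts that mark hepatic stellate cells, their activation and their main growth factor signals: Acta2, Tagln, Des, Pdgfra, Pdgfrb, Reln, Dcn, Tgfb1, Tgfb2 and Tgfb3. They were taken by symbol from a table of 55357 genes, each symbol matched 1 row, and all 10 passed the filter on low counts that left 17358 genes to test. The study asked how loss of PPARα in hepatocytes and a diet that causes steatohepatitis change the mouse liver, and bulk liver RNA was sequenced in 12 libraries. All mice were male C57BL/6J with both Ppara alleles floxed. WT mice carried no Cre (PPARa fl/fl AlbuminCre+/+), and KO mice carried 1 copy of Cre (PPARa fl/fl AlbuminCre Tg/+) under the albumin promoter, which acts in hepatocytes and not in stellate cells. From 7 weeks of age the mice ate chow or CDAHFD, a high-fat diet deficient in choline and built on L-amino acids, for 6 weeks and were killed at 13 weeks. This gave 4 libraries of WT mice on chow (WT chow), 3 of WT mice on CDAHFD (WT CDAHFD), 2 of KO mice on chow (KO chow) and 3 of KO mice on CDAHFD (KO CDAHFD).

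Hepatic stellate cells lie between hepatocytes and the sinusoidal endothelium and store vitamin A in the healthy liver. In injury they turn into myofibroblasts that contract, divide and secrete matrix. PDGF, acting through the receptor kinases encoded by Pdgfra and Pdgfrb, drives their growth and migration, and TGF-β, which is secreted in a latent form and released by integrins or thrombospondin, drives matrix synthesis through SMAD transcription factors. In bulk liver RNA, a lower level can come from fewer cells of a type or from less RNA per cell, and a higher level from the reverse, and these cannot be told apart.

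Total counts per library ran from 29906785 to 43551003. Ppara, the targeted gene, stood at 96.2 to 238 CPM in WT chow, 59.5 to 75.5 in WT CDAHFD, 14.4 and 38.7 in KO chow and then 20.7 to 51.9 in KO CDAHFD, where CPM are counts scaled to 1e+06 per library of TMM-scaled size. Every KO library was thus below every WT library, and Ppara was called lower in KO chow against WT chow (log2 fold change -2.68 ± 0.5, adjusted p = 0.00111) but not in KO CDAHFD against WT CDAHFD (-0.94 ± 0.42, adjusted p = 0.547). A list of 8 hepatocyte genes (Alb, Apoa1, Ttr and others) summed to 44800 CPM or more in every library. Its mean sum was 101300 CPM in WT chow, 52260 in WT CDAHFD, 77590 in KO chow and then 51710 in KO CDAHFD. In genes of vascular smooth muscle 3 libraries stood apart. The sum of Myh11, Cnn1, Actg2 and Lmod1, which encode contractile proteins of smooth muscle, was 33.85 CPM in WT chow 1, 17.17 in KO CDAHFD 3 and 13.92 in KO chow 1, and lay between 1.605 and 6.078 in the other 9 libraries. Results that rest on these libraries are given with and without them, and that split was chosen after seeing the data.

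For the genes below, sequence upstream of the start helps to see how differently they are built. RefSeq promoters on GRCm38.p6 were at hand for 6 of the 10 genes (Acta2, Des, Pdgfra, Reln, Tgfb1 and Tgfb2), and the 250 bases before the start were searched on both strands. Acta2 held 2 CArG boxes, the site read by serum response factor, counted with at most 1 of the 6 central bases not A or T. Such a box was present in 8.59% of 32851 promoters, and in no other of the 6 genes. The 2 boxes of Acta2 are shown with 10 bases on each side, box in capitals, at chr19:34255438-34255467 and chr19:34255388-34255417 on the minus strand. GENCODE places most of this stretch in an annotated exon of Acta2.
Acta2 box at -84: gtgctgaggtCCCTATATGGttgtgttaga
Acta2 box at -34: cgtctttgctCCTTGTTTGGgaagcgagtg

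The upstream sequences of Tgfb1 and Tgfb2 are shown because these genes encode ligands of the same receptors and both rose against WT chow, while their promoters differ in base composition. The 250 bases of Tgfb1 (chr7:25686752-25687001, plus strand) were 75.2% G and C against a median of 52.4% over all promoters, and held the GC box GGGCGG (capitals, either strand) 5 times, a motif present in 32.7% of promoters. Those of Tgfb2 (chr1:186705990-186706239, minus strand) were 53.6% G and C, and held TATAAA at -31 and the E-box CACGTG at -51 (capitals), which occurred in 12.4% and 6.02% of promoters. They overlap an exon of the antisense gene Gm29491. No motif overlapped another in either sequence, and a match of letters is a description and not a binding site.
Tgfb1: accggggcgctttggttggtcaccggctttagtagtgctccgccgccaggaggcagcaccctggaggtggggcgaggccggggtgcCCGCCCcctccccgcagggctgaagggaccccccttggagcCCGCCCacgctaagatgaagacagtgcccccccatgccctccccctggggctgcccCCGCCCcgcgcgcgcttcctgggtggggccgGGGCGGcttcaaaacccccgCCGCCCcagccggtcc
Tgfb2: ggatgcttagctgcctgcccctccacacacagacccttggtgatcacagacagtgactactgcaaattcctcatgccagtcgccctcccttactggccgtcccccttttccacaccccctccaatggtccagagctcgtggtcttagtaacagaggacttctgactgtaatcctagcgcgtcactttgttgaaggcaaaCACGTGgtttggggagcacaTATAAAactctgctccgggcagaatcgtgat

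Both PDGF receptors, both secreted matrix genes and the 3 TGF-β ligands rose in KO chow and in WT CDAHFD against WT chow, while the contractile genes Acta2, Tagln and Des did not pass the test there. In KO chow 7 of 10 genes were called higher and 0 lower, against 22.0% of 17358 genes called higher and 17.0% lower. In WT CDAHFD 7 of 10 were called higher and 0 lower, against 26.1% and 25.0% of all genes. In KO CDAHFD 9 of 10 were called higher and 0 lower, against 26.9% and 25.4%. The median log2 fold change over the 10 genes was 1.34, 1.61 and 1.64 in these 3 comparisons, and over all genes tested 0.002, -0.048 and -0.04. A gene was called at an adjusted p under 0.05 in edgeR's quasi-likelihood test over all genes, and the same 4 WT chow libraries serve all 3 comparisons. In KO chow every library exceeded every WT chow library for 7 genes (27.2% of all genes did so), in WT CDAHFD for 7 (28.0%) and in KO CDAHFD for 8 (26.7%).

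**Figure D1:**
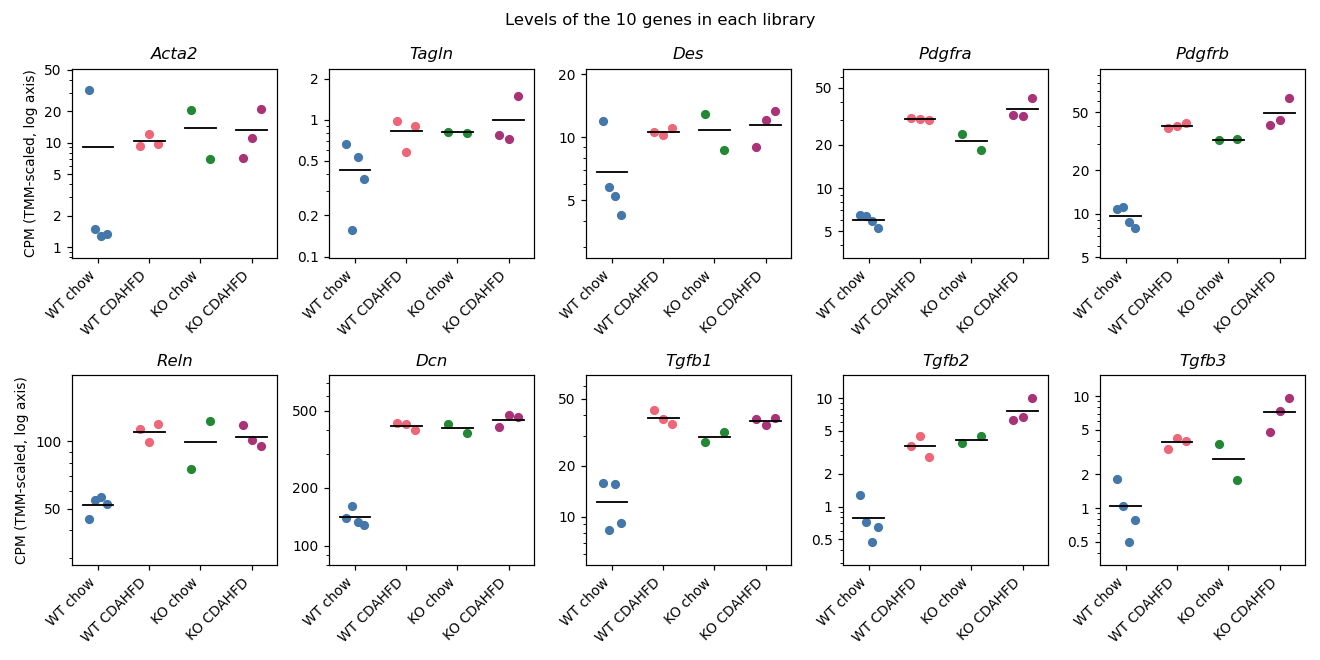
Levels of the 10 genes in each of the 12 libraries, as CPM on a log axis, with a point per library and a line at the group mean. The 4 WT chow libraries lie below all others for Pdgfra, Pdgfrb, Reln, Dcn, Tgfb1 and Tgfb2, while for Acta2 WT chow 1 is the highest of all at 31.9 CPM.

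The 2 PDGF receptor genes rose 3.34-fold to 5.95-fold against WT chow, with libraries close together within most groups. Pdgfra (chr5:75152292-75198215, plus strand), the receptor chain for PDGF-A and others that marks stellate cells and fibroblasts of the liver, stood at 6.45, 6.42, 5.87 and 5.23 CPM in WT chow. It stood at 30.8, 30.6 and 30.1 in WT CDAHFD, at 23.9 and 18.5 in KO chow, and at 32.3, 32.1 and 42.7 in KO CDAHFD. No library of these 3 groups overlapped WT chow, and the KO chow libraries lay between WT chow and both CDAHFD groups. The log2 fold change against WT chow was 1.82 ± 0.15 (SE, KO chow, adjusted p = 1.56e-06), 2.34 ± 0.14 (WT CDAHFD, adjusted p = 5.32e-08) and 2.57 ± 0.14 (KO CDAHFD, adjusted p = 2.84e-08).

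Pdgfrb (chr18:61045150-61085061, plus strand) encodes the receptor chain for PDGF-B through which activated stellate cells divide, and pericytes and smooth muscle use it too. It stood at 10.8, 11.1, 8.84 and 7.98 CPM in WT chow, at 39.2, 39.9 and 41.9 in WT CDAHFD, at 32.3 and 32.5 in KO chow and then 41.0, 44.4 and 62.4 in KO CDAHFD. The order of the groups was that of Pdgfra, again with no library shared in range with WT chow. Log2 fold changes were 1.74 ± 0.17 (KO chow, adjusted p = 5.44e-06), 2.06 ± 0.15 (WT CDAHFD, adjusted p = 3.43e-07) and 2.35 ± 0.15 (KO CDAHFD, adjusted p = 1.23e-07). WT chow 1, the library highest in smooth muscle genes, lay next to WT chow 2 for both receptors. Per length of exon, Pdgfra was the lower of the pair in every library, at a ratio to Pdgfrb of 0.318 to 0.363 in WT chow, 0.392 to 0.429 in WT CDAHFD, 0.311 and 0.404 in KO chow and then 0.374 to 0.43 in KO CDAHFD.

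Over 12904 genes averaging 50 counts or more, the 5 whose centred log2 CPM lay closest to those of Pdgfrb over the 12 libraries were Col5a1, Oxct1, Bgn, Parp8 and Pdgfra, at root mean square differences of 0.11, 0.13, 0.15, 0.16 and 0.16. Col5a1 encodes a fibrillar collagen chain and Bgn the matrix proteoglycan biglycan.

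The PDGF ligand genes rose too. All 4 were called higher in WT CDAHFD and in KO CDAHFD (median log2 fold changes 1.73 and 2.17) and 3 of 4 in KO chow (1.41). The shares of all genes called higher were 26.1%, 26.9% and 22.0% in that order. Pdgfb, the ligand of Pdgfrb made by endothelium, platelets and macrophages, rose from a mean of 1.44 CPM in WT chow to 16.0 in WT CDAHFD (log2 fold change 3.45 ± 0.20), 7.43 in KO chow (2.35 ± 0.21) and then 16.8 in KO CDAHFD (3.53 ± 0.20). Pdgfa rose by 2.0 ± 0.12 in WT CDAHFD, and Pdgfd by 1.45 ± 0.18. Pdgfc was the one ligand not called in KO chow, at 0.74 ± 0.36 (adjusted p = 0.122).

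Dcn and Reln encode secreted proteins of stellate cells, and both rose in all 3 groups against WT chow, Dcn by 2.88-fold to 3.21-fold and Reln by 1.9-fold to 2.11-fold. Decorin, the product of Dcn (chr10:97479609-97518143, plus strand), is a small leucine-rich proteoglycan that binds collagen fibrils and TGF-β. Dcn stood at 140, 161, 133 and 128 CPM in WT chow, 432, 426 and 397 in WT CDAHFD, 429 and 383 in KO chow and then 414, 477 and 463 in KO CDAHFD. The 3 changed groups overlapped each other and none reached down to WT chow. Its log2 fold change was 1.53 ± 0.12 (KO chow, adjusted p = 1.08e-06), 1.57 ± 0.11 (WT CDAHFD, adjusted p = 1.73e-07) and 1.68 ± 0.11 (KO CDAHFD, adjusted p = 9.91e-08).

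Reln (chr5:21884454-22344702, minus strand) encodes reelin, a large secreted glycoprotein that stellate cells make in the quiescent state as well. Reln stood at 45.1, 54.7, 56.5 and 52.5 CPM in WT chow, 113, 98.9 and 119 in WT CDAHFD, 75.5 and 123 in KO chow and then 118, 101 and 95.1 in KO CDAHFD. All libraries off WT chow were higher than all on it, and the 2 KO chow libraries differed more from each other than the libraries of any other group. Its log2 fold changes were the smallest of the 7 genes called in all 3 comparisons, at 0.92 ± 0.17 (KO chow, adjusted p = 0.000959), 1.08 ± 0.15 (WT CDAHFD, adjusted p = 8.12e-05) and 1.0 ± 0.15 (KO CDAHFD, adjusted p = 0.000135).

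Of 6 proteoglycans related to decorin, 4 were called higher in KO chow, 4 in WT CDAHFD and then 5 in KO CDAHFD, and 0 lower (median log2 fold changes 1.05, 1.6 and 1.65). For these and the reelin receptor counts below, the shares of all genes were 22.0%, 26.1% and 26.9% higher. They were 17.0%, 25.0% and 25.4% lower. Lum, the gene of lumican, rose from a mean of 7.2 CPM in WT chow to 87.5 in WT CDAHFD (log2 fold change 3.60 ± 0.24), 63.1 in KO chow (3.13 ± 0.25) and then 113 in KO CDAHFD (3.97 ± 0.24). In WT CDAHFD Fmod rose by 2.05 ± 0.30 and Bgn by 1.84 ± 0.13. Aspn was below 1 CPM in every group mean and was not called. Of the 2 reelin receptors and their adaptor, 2 genes were called higher in KO chow, 2 in WT CDAHFD and then 3 in KO CDAHFD, and 0 lower. Lrp8, a reelin receptor, rose from 0.0795 CPM in WT chow (1 to 3 counts per library) to 1.66 in WT CDAHFD, 0.937 in KO chow and then 1.62 in KO CDAHFD, and was called in all 3 comparisons. Vldlr, the other receptor, was called in KO chow (2.46 ± 0.40, from 2.16 to 12.1 CPM) and KO CDAHFD (1.70 ± 0.37), and was -0.22 ± 0.38 in WT CDAHFD. The difference of Vldlr between KO CDAHFD and WT CDAHFD itself was 1.92 ± 0.40 and missed the threshold (adjusted p = 0.074). Dab1, the adaptor, was called in both CDAHFD groups.

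The 3 TGF-β ligands rose in all 3 groups against WT chow. Tgfb1 (chr7:25687002-25705077, plus strand), the isoform made by macrophages, endothelium and stellate cells, stood at 15.8, 8.31, 15.7 and 9.22 CPM in WT chow, 43.1, 38.0 and 35.3 in WT CDAHFD, 27.7 and 31.8 in KO chow and then 37.9, 35.0 and 38.5 in KO CDAHFD. The KO chow libraries lay between WT chow and all CDAHFD libraries. Tgfb1 changed by 1.28 ± 0.22 (KO chow, adjusted p = 0.000632), 1.66 ± 0.20 (WT CDAHFD, adjusted p = 2.22e-05) and 1.6 ± 0.20 (KO CDAHFD, adjusted p = 2.85e-05).

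Tgfb2 (chr1:186622792-186705989, minus strand), an isoform known from bile duct cells and fibroblasts, was low in WT chow at 1.28, 0.724, 0.467 and 0.642 CPM. It stood at 3.59, 4.5 and 2.84 in WT CDAHFD, 3.83 and 4.44 in KO chow and then 6.25, 6.68 and 10.1 in KO CDAHFD. All 3 KO CDAHFD libraries were above every other library. With 3.31 ± 0.30 (KO CDAHFD, adjusted p = 1.83e-06), Tgfb2 had the largest change of the 10 genes in that comparison, a 9.89-fold rise, and its log2 fold changes were 2.41 ± 0.33 (KO chow, adjusted p = 9.48e-05) and 2.23 ± 0.30 (WT CDAHFD, adjusted p = 5.64e-05).

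Tgfb3 (chr12:86056745-86079041, minus strand), an isoform of fibroblasts and myofibroblasts, stood at 1.82, 1.04, 0.5 and 0.78 CPM in WT chow, 3.38, 4.27 and 3.96 in WT CDAHFD, 3.73 and 1.79 in KO chow and then 4.78, 7.38 and 9.59 in KO CDAHFD. KO chow 2 was within the range of WT chow, and all KO CDAHFD libraries were above the rest. Its log2 fold changes were 1.41 ± 0.42 (KO chow, adjusted p = 0.0189), 1.90 ± 0.38 (WT CDAHFD, adjusted p = 0.00114) and 2.81 ± 0.38 (KO CDAHFD, adjusted p = 5.06e-05). Without KO chow 1 the KO chow call was lost, at 0.81 (adjusted p = 0.294).

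Tgfb1 was the main isoform per length of exon in every library. Its share of the 3 was 79.2% to 93.2% in WT chow, 78.7% to 84.1% in WT CDAHFD, 75.7% and 82.9% in KO chow and then 62.5% to 75.1% in KO CDAHFD. In the same groups the mean share of Tgfb2 was 4.8%, 6.63%, 9.6% and 12.1%, and that of Tgfb3 10.9%, 12.2%, 11.1% and 19.5%. KO CDAHFD thus held the lowest shares of Tgfb1 and the highest mean shares of the other two. The 5 genes closest to Tgfb1 by the same measure were Kctd12, Aldh3b1, Pitpnm1, Lgmn and Entpd1, at root mean square differences of 0.12 to 0.14.

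**Figure D2:**
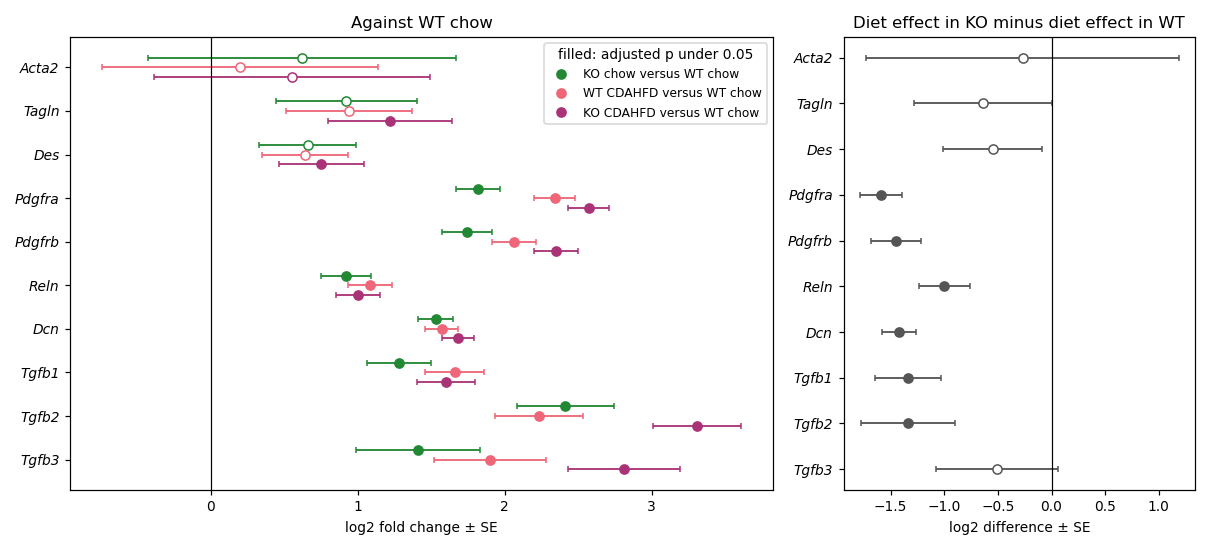
Log2 fold changes ± SE of the 10 genes in KO CDAHFD, WT CDAHFD and KO chow against WT chow (left), and the diet effect in KO minus that in WT (right), with filled points at an adjusted p under 0.05. Pdgfra to Tgfb3 lie right of 0 in all 3 comparisons, from 0.92 for Reln to 3.31 for Tgfb2, and the error bars of Acta2 span 0.

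The contractile and cytoskeletal genes gave the least certain changes. Acta2 (chr19:34241090-34255590, minus strand) encodes smooth muscle α-actin, the classical marker of stellate cell activation, which vascular smooth muscle also makes. Acta2 stood at 31.9, 1.48, 1.27 and 1.33 CPM in WT chow, 9.22, 12 and 9.64 in WT CDAHFD, 20.6 and 6.96 in KO chow and then 7.18, 11 and 21.1 in KO CDAHFD. WT chow 1 was thus the highest of all 12 libraries, and the other 3 WT chow libraries were the lowest. The log2 fold changes were 0.62 ± 1.05 (KO chow, adjusted p = 0.674), 0.20 ± 0.94 (WT CDAHFD, adjusted p = 0.875) and 0.55 ± 0.94 (KO CDAHFD, adjusted p = 0.652), and none passed the test.

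Without WT chow 1 Acta2 was called in all 3 comparisons, at 3.35 (KO chow, adjusted p = 0.000232), 2.94 (WT CDAHFD, adjusted p = 0.000271) and 3.31 (KO CDAHFD, adjusted p = 0.000108). Without the 3 libraries high in smooth muscle genes they were 2.37 (KO chow, adjusted p = 8.68e-05, with 1 KO chow library left), 2.94 (WT CDAHFD, adjusted p = 1.63e-06) and 2.75 (KO CDAHFD, adjusted p = 4.74e-06). With the smooth muscle score as a covariate they were 0.81 (KO chow, adjusted p = 0.165), 1.79 (WT CDAHFD, adjusted p = 0.003) and 1.84 (KO CDAHFD, adjusted p = 0.00244). The 3 libraries with the most Acta2 were the 3 highest in the smooth muscle sum, and the part of smooth muscle RNA in this was not tested. As a ratio to that sum, Acta2 was 0.463 to 0.943 in WT chow, 1.98 to 2.85 in WT CDAHFD, 1.28 and 1.48 in KO chow and then 1.23 to 4.27 in KO CDAHFD, so that WT chow was lowest with no overlap and with WT chow 1 included. The ratio was set up after seeing the data and has no test.

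**Figure D3:**
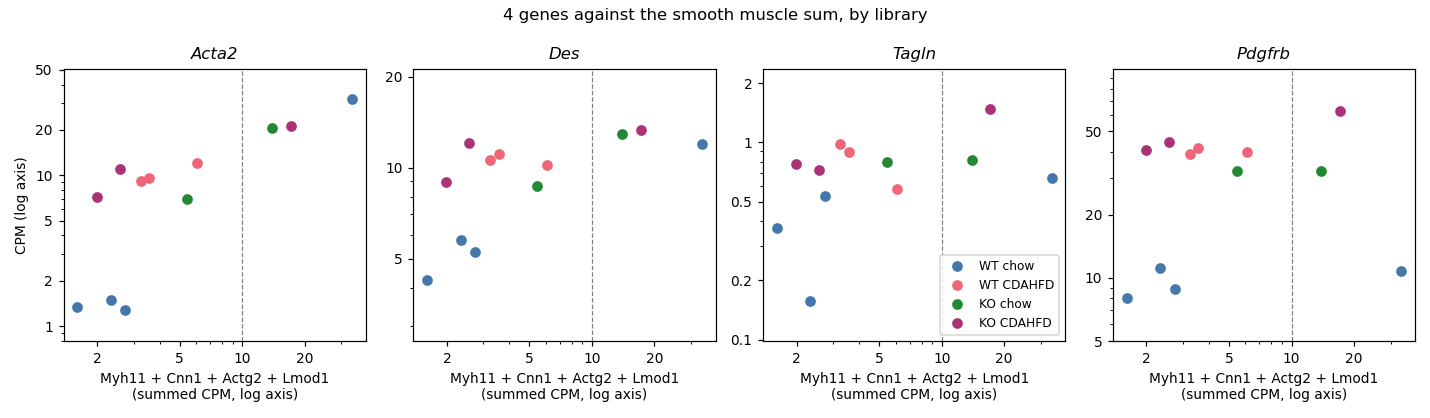
Acta2, Des, Tagln and Pdgfrb (CPM, log axis) against the summed CPM of Myh11, Cnn1, Actg2 and Lmod1 (log axis), a point per library coloured by group, with a dashed line at 10 CPM. The 3 libraries right of the line hold the 3 highest values of Acta2, from 20.6 to 31.9, while Pdgfrb of WT chow 1, at 10.8, stays with its group.

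Des (chr1:75360329-75368579, plus strand) encodes desmin, an intermediate filament of stellate cells of rodents, pericytes and muscle. Des stood at 12, 5.76, 5.24 and 4.26 CPM in WT chow, 10.6, 10.2 and 11.1 in WT CDAHFD, 12.9 and 8.68 in KO chow and then 8.97, 12.1 and 13.3 in KO CDAHFD. WT chow 1 lay among the libraries of the other groups, and the remaining WT chow libraries lay below them all. Des was 0.66 ± 0.33 (KO chow, adjusted p = 0.133), 0.64 ± 0.29 (WT CDAHFD, adjusted p = 0.0886) and was 0.75 ± 0.29 for KO CDAHFD, where it was called by a narrow margin (adjusted p = 0.0492). That call was lost in 9 of the 12 fits that leave out 1 library, down to 0.61. Without WT chow 1 Des was called in all 3 comparisons, at 1.09, 1.08 and 1.2. Without the 3 libraries high in smooth muscle genes it was 0.78 in KO chow, with 1 library left there, and 1.08 in WT CDAHFD. With all libraries, KO chow and WT CDAHFD were both called with no filter (0.7 and 0.69) and with library size only (1.04 and 1.17). WT CDAHFD was called with the smooth muscle score too (0.79, adjusted p = 0.00262), and the replicate block lost the KO CDAHFD call (0.65, adjusted p = 0.0892).

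Tagln (chr9:45929619-45936058, minus strand) encodes transgelin, an actin-binding protein of smooth muscle and myofibroblasts. It held only 349 counts in the 12 libraries, and 62.4% of its exon length is shared with the antisense gene Gm48529, which held 441. Pcsk7, a protease gene on the opposite strand too, shares 108 exon bases with Tagln and held 14958 counts. The libraries carry no strand, so reads of these genes cannot be told apart there and the counts of Tagln are uncertain. Tagln stood at 0.66, 0.157, 0.533 and 0.367 CPM in WT chow, 0.984, 0.583 and 0.896 in WT CDAHFD, 0.816 and 0.8 in KO chow and then 0.776, 0.722 and 1.48 in KO CDAHFD. KO chow and KO CDAHFD did not overlap WT chow, and WT CDAHFD did. Its log2 fold changes were 0.92 ± 0.48 (adjusted p = 0.148), 0.94 ± 0.43 (adjusted p = 0.0832) and 1.22 ± 0.42, of which the last, in KO CDAHFD, was called (adjusted p = 0.0291). Without KO CDAHFD 3 it was 0.81 (adjusted p = 0.16), without WT chow 2 0.96 (adjusted p = 0.0596), without WT chow 4 1.19 (adjusted p = 0.0582), and without the 3 libraries high in smooth muscle genes 1.12 (adjusted p = 0.076). In WT CDAHFD Tagln was called without WT chow 1 (1.24, adjusted p = 0.039), without those 3 libraries (1.25, adjusted p = 0.0314), with the smooth muscle score (1.06, adjusted p = 0.0381), with the clock score (1.07, adjusted p = 0.0485) and with library size only (1.48, adjusted p = 0.0119), where KO chow was called as well (1.31, adjusted p = 0.045).

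Serum response factor and its MRTF coactivators control actin and actin-regulating genes. Of 14 genes of this network, the factors included, 8 were called higher in KO chow, 10 in WT CDAHFD and then 9 in KO CDAHFD, and 0 lower (median log2 fold changes 0.96, 1.12 and 1.07). Of all genes tested 22.0%, 26.1% and 26.9% were called higher in these comparisons, and 17.0%, 25.0% and 25.4% lower. Vim, the gene of the intermediate filament vimentin, rose from a mean of 19.7 CPM in WT chow to 182 in WT CDAHFD (3.21 ± 0.26), 93.6 in KO chow (2.25 ± 0.28) and then 176 in KO CDAHFD (3.16 ± 0.26). Tagln2, a relative of Tagln found in many cell types, rose by 2.76 ± 0.18 in WT CDAHFD, and Flna, an actin crosslinker, by 2.40 ± 0.29. The myosin light chain Myl9, which smooth muscle makes, was -0.12 ± 0.63 there and the transcription factor gene Srf 0.21 ± 0.14, and neither was called in any of the 3 comparisons.

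The genes closest to Acta2 over the 12 libraries were Synpo2, Saa2, Cpe, S100a9 and Tlr2, at root mean square differences of 0.53 to 0.7, which is a far looser likeness than that of the genes closest to Pdgfrb or Tgfb1. Synpo2, an actin-associated protein of smooth muscle, stood in WT chow 1 at 3.61 CPM and in the other WT chow libraries at 0.367 to 0.472, the same split as Acta2.

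**Figure D4:**
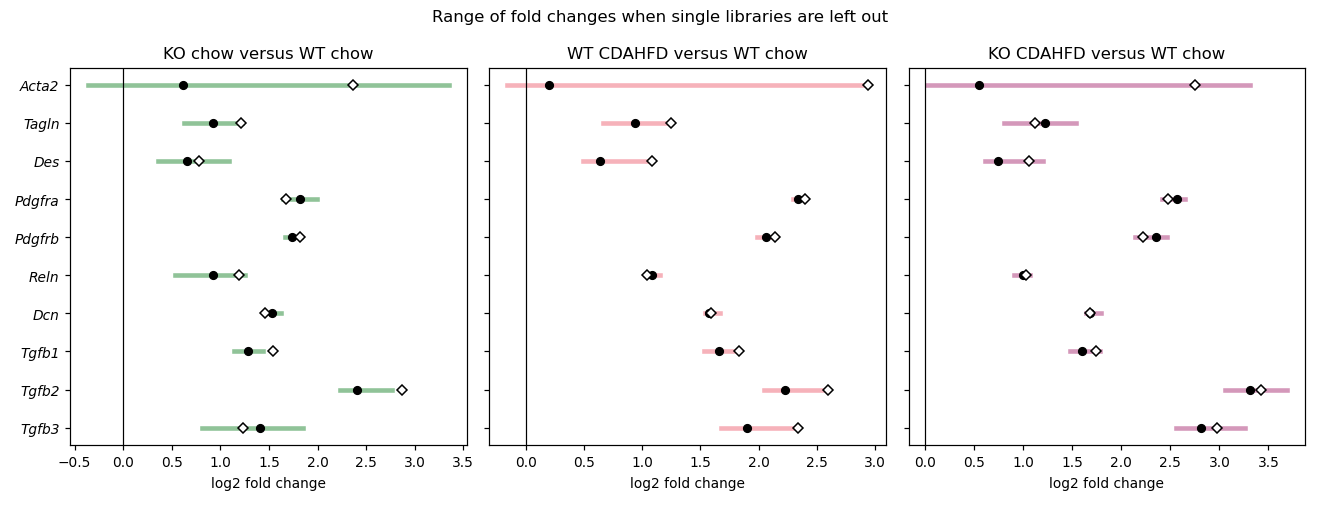
Log2 fold changes against WT chow of the 10 genes in the full fit (black points), the range over 12 fits that each leave out 1 library (bars), and the value without the 3 libraries high in smooth muscle genes (diamonds). The bar of Acta2 reaches from -0.36 to 3.35 in KO chow, while those of Pdgfra, Pdgfrb, Reln, Dcn, Tgfb1 and Tgfb2 stay right of 0.5 in all panels.

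The order of levels among the 10 genes was compared per kilobase of exon. In WT chow Dcn led with a mean of 24.1 CPM per kb, followed by Acta2 (4.1), Tgfb1 (2.43), Reln (2.2), Des (1.82), Pdgfrb (1.76), Pdgfra (0.598), Tgfb3 (0.306), Tagln (0.216) and Tgfb2 (0.134). Only Dcn against Acta2 and Pdgfrb against Pdgfra were neighbours whose libraries did not overlap, and Acta2 owed its place to WT chow 1, at 14.5. In WT CDAHFD the order was Dcn (71.6), Tgfb1 (7.69), Pdgfrb (7.37), Acta2 (4.69), Reln (4.64), Pdgfra (3.04), Des (2.83), Tgfb3 (1.14), Tgfb2 (0.629) and Tagln (0.413), where Tgfb1 and Pdgfrb, Acta2 and Reln, and Tgfb2 and Tagln overlapped. Dcn also led in KO chow (69.6) and KO CDAHFD (77.3), and Tagln was last in both (0.406 and 0.498). The place of Tagln is uncertain in all groups, as 62.4% of its exon length is shared with Gm48529. In KO chow Acta2 (6.27), Pdgfrb (5.91) and Tgfb1 (5.9) followed Dcn and could not be ordered from their libraries, and in KO CDAHFD neighbours from Pdgfrb (9.0) to Tgfb2 (1.33) all overlapped.

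In KO mice, 1 of the 10 genes passed the test of the diet. Between KO CDAHFD and KO chow 1 of 10 genes was called higher and 0 lower, against 3.76% and 2.44% of all genes tested, and the median log2 fold change of the 10 was 0.31 (all genes -0.006). The gene was Pdgfra, at 0.75 ± 0.16 (adjusted p = 0.0182), and it lost the call without KO chow 2 (0.58, adjusted p = 0.123) and without KO CDAHFD 3 (0.6, adjusted p = 0.05). Every KO CDAHFD library exceeded both KO chow libraries for 5 genes (19.9% of all genes did so). Beside Pdgfra these were Pdgfrb at 0.61 ± 0.18 (adjusted p = 0.0698), Tgfb1 at 0.32 ± 0.24 (0.465), Tgfb2 at 0.89 ± 0.33 (0.129) and Tgfb3 at 1.40 ± 0.44 (0.0817). DESeq2 called 4 genes here. Dcn at 0.15 ± 0.13, Reln at 0.08 ± 0.18, Des at 0.08 ± 0.35, Tagln at 0.30 ± 0.48 and Acta2 at -0.07 ± 1.11 did not pass the test either. An unadjusted p under 0.05 was reached by 4 of the 10 genes, against 23.1% of all genes.

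The interaction of genotype and diet, the diet effect in KO minus that in WT, was tested directly. It was called negative for 6 of 10 genes and positive for 0, against 14.5% and 8.63% of all genes, with a median of -1.17 (all genes 0.012). The 6 were Pdgfra at -1.59 ± 0.20 (adjusted p = 0.000144), Pdgfrb at -1.45 ± 0.23 (0.000657), Dcn at -1.42 ± 0.16 (7.31e-05), Tgfb1 at -1.34 ± 0.31 (0.00769), Tgfb2 at -1.34 ± 0.44 (0.0441) and Reln at -1.0 ± 0.24 (0.00913). For Dcn this means a diet effect of 1.57 on the log2 scale in WT and 0.15 in KO. Reln lost the call without KO chow 2 (-0.61, adjusted p = 0.0611), and Tgfb2 lost it in 9 of 12 fits without 1 library. Tgfb3 at -0.51 ± 0.57, Des at -0.55 ± 0.46, Tagln at -0.64 ± 0.64 and Acta2 at -0.27 ± 1.46 were not called, and without WT chow 1 Acta2 was (-2.98, adjusted p = 0.0046) and Des was (-0.97, adjusted p = 0.0281).

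Under CDAHFD no difference between the genotypes passed the test in the 10 genes. By edgeR 0 of 10 were called in KO CDAHFD against WT CDAHFD, where 0.0864% of all genes were called higher and 0.271% lower, and 2 of 10 had an unadjusted p under 0.05 (8.77% of all genes). DESeq2 and the fit with no filter on low counts each called 1, Tgfb2. The 2 genes of the unadjusted test were Tgfb2 at 1.07 ± 0.29 (adjusted p = 0.208) and Tgfb3 at 0.90 ± 0.37 (adjusted p = 0.506), and for both every KO CDAHFD library exceeded every WT CDAHFD library, as for Pdgfra at 0.23 ± 0.14 (3 of 10 genes, 9.47% of all genes). The other 7 had differences of 0.35 ± 1.0 (Acta2), 0.29 ± 0.16 (Pdgfrb), 0.28 ± 0.42 (Tagln), 0.11 ± 0.31 (Des), 0.11 ± 0.11 (Dcn), -0.06 ± 0.21 (Tgfb1) and -0.07 ± 0.16 (Reln).

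KO chow, with the knockout and no CDAHFD, and WT CDAHFD, with the diet and no knockout, were also compared directly. Ppara itself was lower in WT CDAHFD than in WT chow (-1.29 ± 0.4), so the 2 groups do not separate diet from loss of Ppara. By edgeR 0 of 10 genes were called, against 2.71% of all genes called higher and 3.42% lower in KO chow, and 1 had an unadjusted p under 0.05 (24.0% of all genes). That gene was Pdgfra, at -0.53 ± 0.16 (adjusted p = 0.0689), and DESeq2 called it. Both KO chow libraries were below all WT CDAHFD libraries for 3 genes (24.1% of all genes), Pdgfra, Pdgfrb at -0.32 ± 0.18 and Tgfb1 at -0.38 ± 0.24. The remaining differences were 0.42 ± 1.11 for Acta2, 0.18 ± 0.32 for Tgfb2, 0.02 ± 0.35 for Des, -0.02 ± 0.47 for Tagln, -0.04 ± 0.13 for Dcn, -0.15 ± 0.18 for Reln and -0.49 ± 0.43 for Tgfb3.

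The genes that hold TGF-β latent and release it were mostly called in the same direction as the ligands. Of 10 such genes 9 were called higher and 1 lower in KO chow, 8 and 1 in WT CDAHFD and then 9 and 1 in KO CDAHFD, with median log2 fold changes of 1.75, 2.36 and 2.7. The shares of all genes called higher were 22.0%, 26.1% and 26.9%, and of those called lower 17.0%, 25.0% and 25.4%. Thbs1, the gene of thrombospondin 1, which releases TGF-β from its latent complex, rose from a mean of 1.52 CPM in WT chow to 28.3 in WT CDAHFD (4.24 ± 0.31), 15.4 in KO chow (3.36 ± 0.33) and then 24.7 in KO CDAHFD (4.04 ± 0.31). Ltbp2, of the latent TGF-β binding protein family, rose by 3.41 ± 0.43 in WT CDAHFD. Itgb6, a subunit of an integrin that activates TGF-β, rose from a mean of 0.0841 CPM (1 to 5 counts per library) to 0.719. The gene called lower in all 3 was Furin, the protease that cuts the TGF-β precursor, at -0.48 ± 0.14 in WT CDAHFD.

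Among 6 receptor and coreceptor genes 4 were called higher and 0 lower in each of the 3 comparisons. In WT CDAHFD Tgfbr2 rose by 1.23 ± 0.20, Tgfbr1 by 1.21 ± 0.19 and Acvrl1 by 1.11 ± 0.19, and in KO chow these were 0.93 ± 0.22, 0.80 ± 0.21 and 0.88 ± 0.21. The coreceptor genes Eng (0.09 ± 0.12) and Tgfbr3 (-0.39 ± 0.23) were not called in WT CDAHFD or in the other two. Of 10 genes of SMADs and their regulators 0 were called higher and 1 lower in KO chow, 3 and 1 in WT CDAHFD and then 2 and 1 in KO CDAHFD, with median log2 fold changes of 0.16, 0.17 and 0.26. Of all genes tested 22.0%, 26.1% and 26.9% were called higher in these comparisons and 17.0%, 25.0% and 25.4% lower. Tgif1, a SMAD corepressor, rose by 0.76 ± 0.17 in WT CDAHFD, Skil by 0.63 ± 0.16 and the inhibitory Smad6 by 0.47 ± 0.18, while Smurf2, a ubiquitin ligase for the receptors, fell by 0.40 ± 0.13. Smad7, an inhibitor that TGF-β induces, stood at -0.01 ± 0.22 there and at 0.24 ± 0.24 in KO chow.

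Of 9 known TGF-β target genes 8 were called higher and 1 lower in each of the 3 comparisons, with median log2 fold changes of 1.61, 1.62 and 2.14. Of all genes tested 22.0%, 26.1% and 26.9% were called higher, and 17.0%, 25.0% and 25.4% lower. Tnc, the gene of tenascin C, rose from a mean of 0.605 CPM in WT chow to 16.6 in WT CDAHFD (4.78 ± 0.53), 10.2 in KO chow (4.08 ± 0.56) and then 18.5 in KO CDAHFD (4.94 ± 0.54). Cthrc1, a gene of activated fibroblasts, was called in all 3, from 0 or 1 count per WT chow library to means of 0.167 CPM in WT CDAHFD, 0.168 in KO chow and then 0.273 in KO CDAHFD. The gene called lower was Inhba, which encodes an activin subunit and is also made by hepatocytes, at -1.02 ± 0.28 in WT CDAHFD. The interaction with diet was called negative for 5 of the 10 latency and activation genes, 2 of the 6 receptor genes, 0 of the 10 SMAD genes and 4 of the 9 targets, and positive for none of these. Over all genes tested it was called negative for 14.5% and positive for 8.63%, so lists this short with 0 or 2 calls are not set apart from that share.

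**Figure D5:**
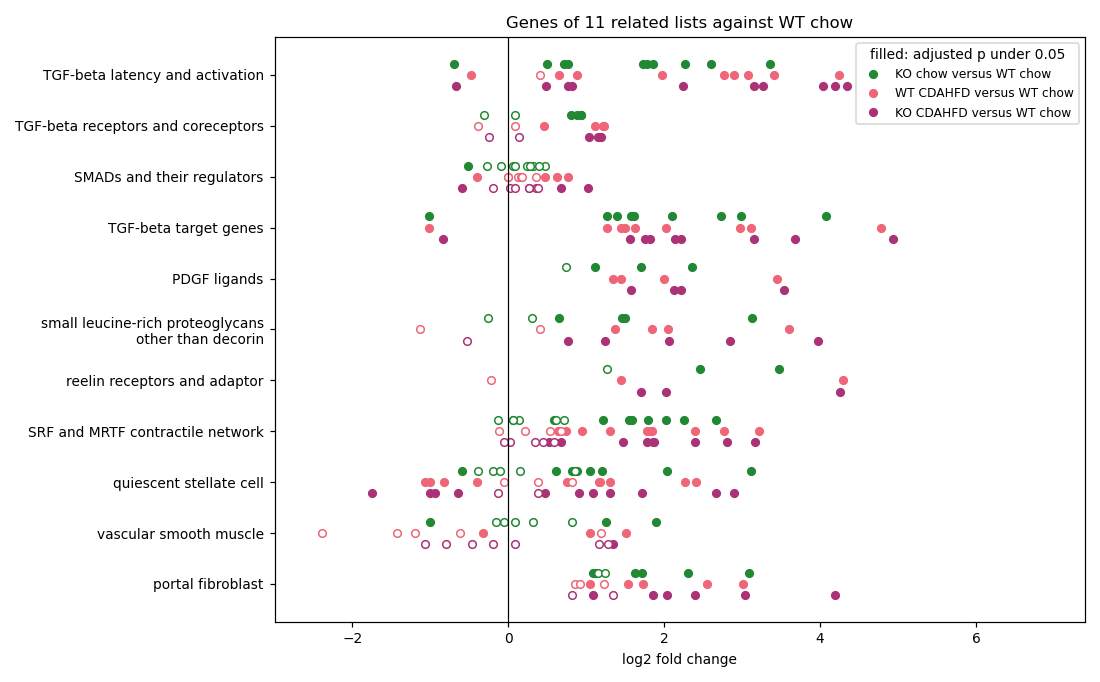
Log2 fold changes against WT chow of each gene in 11 related lists, a point per gene and comparison, filled at an adjusted p under 0.05. The genes of latency and activation reach 4.34 and the targets 4.94, whereas the SMADs and their regulators stay between -0.60 and 1.02.

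Markers of other cells moved in the same comparisons, and their part in the changes of the 10 genes was not tested. Genes known from quiescent stellate cells went both ways, as 7 of 13 were called higher and 1 lower in KO chow, 6 and 4 in WT CDAHFD and then 7 and 4 in KO CDAHFD. Cygb, the gene of the globin cytoglobin, rose by 2.26 ± 0.18 in WT CDAHFD and Tcf21 by 1.31 ± 0.24, whereas Hhip was -1.07 ± 0.30 and Lrat, the enzyme that makes retinyl esters, was not called (0.82 ± 0.40). The list summed to 254.9 to 381.6 CPM in WT chow, 320.1 to 390.2 in WT CDAHFD, 416.6 and 419.6 in KO chow and then 335.2 to 393.0 in KO CDAHFD.

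Of 8 portal fibroblast markers 6 were called higher in KO chow, 5 in WT CDAHFD and then 6 in KO CDAHFD, and 0 lower, with summed levels of 10.5 to 37.31 CPM in WT chow, 88.69 to 90.26 in WT CDAHFD, 63.27 and 109.5 in KO chow and then 111.5 to 206.2 in KO CDAHFD. In WT CDAHFD Eln rose by 3.01 ± 0.45, Dpt by 2.55 ± 0.50 and Entpd2 by 1.73 ± 0.15. Reads of Entpd2, and of Pdgfa, Aspn and Eng above, may be shared with an overlapping gene that held at least 10% as many counts, so these are uncertain. Of 10 macrophage markers 8 were called higher in KO chow, 7 in WT CDAHFD and then 7 in KO CDAHFD, with 0, 1 and 1 lower, and they summed to 286.6 to 517.9 CPM in WT chow and 923.5 or more elsewhere. Gpnmb rose from 0.249 to 712 CPM in WT CDAHFD and Trem2 from 0.522 to 66.9, while Timd4 of resident Kupffer cells was -4.57 ± 0.53.

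Of 7 cholangiocyte markers 5, 6 and 6 were called higher and 1, 0 and 0 lower in the same 3 comparisons, KO chow first and KO CDAHFD last. They summed to 69.79 to 104.9 CPM in WT chow, 386.5 to 608.3 in WT CDAHFD, 187.1 and 306.1 in KO chow and then 602.1 to 914.8 in KO CDAHFD. These sums rest mostly on Spp1, which held 164829 counts over all libraries, against 1465 for Krt7 and 1113 for Cftr. Of the smooth muscle markers 2 of 8 were called higher and 1 lower in KO chow, 2 and 1 in WT CDAHFD and then 1 and 0 in KO CDAHFD, and none of Myh11, Cnn1, Actg2 and Lmod1 was called in these comparisons. Of 6 mesothelial markers 1, 2 and 2 were called higher, Wt1 among them at 1.90 ± 0.50 in WT CDAHFD. Of 8 endothelial markers 1 was called higher and 0 lower in KO chow, and 0 and 4 in each CDAHFD group, Kdr among them at -1.36 ± 0.30 in WT CDAHFD. Of 8 hepatocyte genes 0 were called higher and 6, 8 and 8 lower. Beside these counts, and those of the quiescent stellate cell, portal fibroblast and macrophage markers, stand the shares of all genes tested. Of these 22.0%, 26.1% and 26.9% were called higher and 17.0%, 25.0% and 25.4% lower.

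Clock genes differed between libraries within WT chow, KO chow and KO CDAHFD, and their part in the results was not tested beyond the fit with a clock score. A score over the clock genes ran from -2.54 to 3.47 in WT chow, from -1.34 to -0.45 in WT CDAHFD, was -2.2 and 1.59 for the KO chow libraries, then ran from -0.95 to 3.79 in KO CDAHFD. Of 4 genes of the positive arm 0 were called higher and 1, 0 and 1 lower in those 3 comparisons, KO chow first and KO CDAHFD last, and of 9 of the negative arm 0 higher and 1, 2 and 1 lower. With this score as a covariate 7, 8 and 9 of the 10 genes were called higher against WT chow, and 43.6%, 55.1% and 57.0% of all genes were called in either direction.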

How the data were processed

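Poly-A RNA of mouse liver was sequenced without strand, and the authors deposited counts per gene for 12 libraries. The submitters' processing notes name FastQC 0.11.5, STAR 2.7.3a, DESeq2 and GRCm38. The counting program and annotation are not given in the sources used here. Of 55357 gene identifiers 52081 (94.08%) matched GENCODE M21, which gave symbols and exon lengths. The deposited counts were tested as they stood. Genes were filtered with filterByExpr and scaled by TMM, and 1 group-mean model over all 12 libraries was fitted with edgeR 4.0.16 (glmQLFit, glmQLFTest) in R 4.3.3. P-values were adjusted by Benjamini-Hochberg over 17358 genes and called at 0.05, and SE is the log2 fold change divided by the square root of F. By the study's methods the RNA came from the livers of 3 mice in each group. The libraries number 4 for WT chow, 3 for WT CDAHFD, 2 for KO chow and 3 for KO CDAHFD, which differs from this. The labels tie no library to a named animal.

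All 10 genes were named in every comparison. Of each related list, the called genes with the 3 largest changes and genes of a known role were named, except for some that are not reported here. The genes and lists were chosen with earlier results of these data known. Most similar genes were those with the smallest root mean square difference of centred log2 CPM (prior count 2, mean of at least 50 counts). The alternatives were RLE scaling, library size only, no filter, DESeq2 1.42.0, a replicate block, a clock score and leaving out each library. Leaving out the 3 libraries over 10 CPM in smooth muscle genes, and a smooth muscle score, were added after seeing the data. The script was tested on simulated data with 200 changed genes.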

Additional observations from a re-analysis of the deposited data

Results flagged for a closer look

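Acta2 stood at 31.9 CPM in WT chow 1, far from the other 3 WT chow libraries by Dixon's criterion, which flags about 1 group in 20 by chance. The criterion was applied to WT chow alone, as the other groups hold only 2 or 3 libraries, so none of them could be flagged. The diet effect differed between genotypes, by the test of the difference itself, for 6 genes. Over all genes tested this difference was called negative for 14.5% and positive for 8.63%. On the log2 scale the diet effect in KO minus that in WT was -1.59 for Pdgfra, -1.45 for Pdgfrb, -1.0 for Reln, -1.42 for Dcn, -1.34 for Tgfb1 and -1.34 for Tgfb2. The call of Reln was lost without KO chow 2. That of Tgfb2 was lost in 9 of 12 fits without 1 library and with the replicate block.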

How the results depend on the processing

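Of 1400 fits of single genes under the alternatives, 1272 kept direction and side of the threshold, 29 lost the threshold, 46 gained it and 53 changed sign; the causes were not tested. In KO CDAHFD against WT CDAHFD 1 gene was called higher with no filter and 1 with DESeq2 (0.714% and 0.811% of all genes called in either direction, against 0.357%). Shares with no filter and with DESeq2, here and below, are over 30104 genes, and those of the full fit over 17358. In numbers, 215 and 244 genes were called here against 62. For KO CDAHFD against KO chow they were 1340 and 1886 against 1075. DESeq2 called 2061 in KO chow against WT CDAHFD, where the full fit called 1063. In KO CDAHFD against KO chow, genes called higher numbered 2 with library size only, 3 with no filter, 2 with the clock score, 4 with DESeq2, 2 without the 3 libraries high in smooth muscle genes, 4 with the smooth muscle score, and 0 to 2 when 1 library was left out. The shares of all genes called were 7.97%, 4.45%, 9.62%, 6.26%, 2.89% and 7.88% in that order, against 6.19%. In KO chow against WT CDAHFD 1 was called lower with library size only, the clock score, DESeq2, without the 3 libraries and with the smooth muscle score, and 0 to 1 when 1 library was left out, with 7.3%, 14.3%, 6.85%, 3.7% and 7.58% of all genes called, against 6.12%. Library size only moved the median of all genes by 0.4 in KO chow, 0.51 in WT CDAHFD and then 0.57 in KO CDAHFD against WT chow.

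Signs that changed were all of differences that did not pass the test in the full fit. Without the 3 libraries KO CDAHFD against WT CDAHFD was -0.19 (Acta2), -0.13 (Tagln) and -0.02 (Des), KO CDAHFD against KO chow 0.38 (Acta2), -0.09 (Tagln) and -0.16 (Reln), and KO chow against WT CDAHFD -0.57 (Acta2), -0.3 (Des) and 0.15 (Reln). With the smooth muscle score KO CDAHFD against KO chow was 1.03 (Acta2) and -0.01 (Reln), and KO chow against WT CDAHFD -0.98 (Acta2), -0.33 (Des) and -0.07 (Tgfb2). In KO CDAHFD against KO chow Acta2 was 0.15 with library size only and 0.8 with the clock score, under which its interaction was 0.48. In KO chow against WT CDAHFD Des was -0.13 with library size only, -0.01 with RLE and -0.01 with DESeq2.

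Deviations from the group mean correlated at r from -0.242 to 0.266 between libraries with the same number in their titles. With 2 to 4 libraries per group, whose deviations sum to 0, this cannot decide whether the numbers pair them. The descriptions number the libraries otherwise, and within a genotype none of their numbers recurs. KO chow 2 has the number 3 there, as WT chow 3 does, and the 2 stood at 0.226. By title, WT chow 1 with WT CDAHFD 1 stood at -0.042. With the replicate block 5433 genes were called in KO chow against WT chow in place of 6763. Under the block Acta2 was 0.5 in KO CDAHFD against KO chow, KO chow against WT CDAHFD was -0.09 (Acta2), 0.22 (Tagln) and -0.03 (Des), and the calls of Des in KO CDAHFD (0.65), Tgfb3 in KO chow (1.29) and the Tgfb2 interaction (-1.21) were lost.

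Over the fits without 1 library, Acta2 ran from -0.36 to 3.35 in KO chow and from -0.16 to 2.94 in WT CDAHFD against WT chow, and its interaction from -2.98 to 0.72, that of Tgfb3 from -0.95 to 0.11. In KO CDAHFD against WT CDAHFD the ranges were -0.18 to 0.64 (Acta2), -0.13 to 0.46 (Tagln), -0.01 to 0.26 (Des) and -0.13 to 0.02 (Tgfb1). In KO CDAHFD against KO chow they were -0.66 to 0.94 (Acta2), -0.11 to 0.48 (Tagln), -0.18 to 0.42 (Des) and -0.21 to 0.47 (Reln). In KO chow against WT CDAHFD they were -0.57 to 1.0 (Acta2), -0.22 to 0.13 (Tagln), -0.3 to 0.28 (Des), -0.55 to 0.15 (Reln) and -0.13 to 0.04 (Dcn). KO chow rests on 2 libraries, and leaving 1 out assumes that the other varies like the remaining groups. Low counts limit Tagln, at 5 to 62 per library, and its overlap with Gm48529 leaves these counts uncertain.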
